A study of Mus musculus with 4 samples.

Results

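The HOX gene clusters of 4 mouse small cell lung cancer (SCLC) lines were described from ATAC-seq, an assay in which a transposase cuts and tags accessible DNA. The members were 38 listed Hox genes of the *Hoxa*, *Hoxb*, *Hoxc* and *Hoxd* clusters, among 21938 protein-coding genes of GENCODE release M21 on mm10. Each cluster was taken from its first to its last listed gene with 50 kb on each side, and the promoter of a member was the 6 kb centered on its transcription start site (TSS). These 4 windows held 36 of 91057 peaks in SMC line 1, 99 of 153954 in SMC line 2, 69 of 115837 in non-SMC line 1 and 55 of 128710 in non-SMC line 2.

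Hox genes encode homeodomain transcription factors that specify position along the head-to-tail axis of the embryo. Genes at the 3′ end of a cluster (low numbers) act early and anteriorly, and those at the 5′ end (high numbers) late and posteriorly. Outside the tissues that use them, the clusters are commonly held silent by Polycomb complexes, while trithorax-type complexes that contain MLL proteins keep them active. The lung normally uses mainly anterior and middle genes such as *Hoxa5* and *Hoxb5*.

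SMC and non-SMC stand for SCLC metastasizing cells and non-SCLC metastasizing cells. SMC lines came from NCAMhi CD44lo/- tumor cells and grow in suspension, and non-SMC lines came from NCAMlo CD44hi cells and grow attached. All 4 lines were sorted from lung tumors of the Rb1L/L, Trp53L/L (*RP*) model on a mixed background of C57Bl/6, Balb-c and S129, carry deletions of *Rb1* and *Trp53*, and were untreated. Each line was an established culture with 1 library. The labels call the lines paired and give them the numbers 1 and 2, and those sharing a number are treated as line pair 1 or 2, though the labels do not say that they came from the same tumor. Per the study's methods, the deletions were induced in young adult mice by an adenovirus, given into the trachea, that carries Cre under the CMV promoter, which is not restricted to a cell type. Whether these 4 lines are clonal is not given in the sources used here.

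Peaks were called by the authors in each library separately, and the lowest -log10 p among the peaks of the windows was 2.01, a permissive level. A peak with a -log10 q of at least 5, where q is the p-value adjusted over the genome, is called a strict peak below. Fold enrichment is the pileup of fragments at the summit over the local background, and the percentile of a peak is its rank by fold enrichment in its own list. Read depth, inferred from the lowest background value, was about 8.36 M reads for SMC line 1, 29.4 M for SMC line 2, 23.5 M for non-SMC line 1 and 10.4 M for non-SMC line 2. With 2 lines of each type the smallest two-sided p of an exact permutation test is 0.33, so SMC and non-SMC were not tested against each other, and each difference is given beside the SD between lines of a type. Where 4 values stand together without further labels, they belong to SMC line 1, SMC line 2, non-SMC line 1 and non-SMC line 2, in this order. In bulk cells, fewer cells with an open site and a smaller opening in every cell cannot be told apart.

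Promoter peaks of the sorting and lineage markers followed the labels in part. *Ncam1*, which encodes the NCAM used in the sort, had a strict peak in all 4 libraries (-log10 q of 6.22, 9.85, 14.5 and 7.95). Of 6 neuroendocrine markers, such as *Chga* and *Syp*, 6, 6, 4 and 3 had a promoter peak and 2, 5, 2 and 1 a strict one, and that of *Chga* was seen in SMC lines only. Of *Cd44*, *Vim* and *Wwtr1*, which mark the non-SMC state, 1, 3, 3 and 3 had a promoter peak and 0, 0, 3 and 3 a strict one. *Epcam*, an epithelial gene, had a peak in each SMC line but not in the non-SMC lines. Of 6 fibroblast and endothelial markers, 3 and 4 had a promoter peak in SMC lines 1 and 2, and 5 and 6 in non-SMC lines 1 and 2, with strict peaks for 0, 0, 4 and 3 of them. The leukocyte gene *Ptprc* had a peak in non-SMC line 1 only. The part of these cells' markers in the HOX values was not tested.

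Peaks at HOX promoters were fewer than at all genes and ranked low, least so in SMC line 2. A promoter peak was listed for 11 of 38 members (28.9%) in SMC line 1, where 62.2% of all protein-coding genes had one. It was listed for 24 members (63.2%) in SMC line 2, against 69.3% of all genes. In non-SMC line 1 the count was 15 members (39.5%) against 64.6%, and in non-SMC line 2 it was also 15 members (39.5%) against 64.9%. No member had a promoter peak in all 4 libraries, a pattern that 48.7% of all genes showed. SMC line 2, the deepest library, came closest to the share over all genes.

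The gap was wider at the TSS itself. A peak covered the TSS of 0, 1, 2 and 0 members, against 34.9%, 41.3%, 41.7% and 37.3% of all genes. The members concerned were *Hoxb5*, a lung-expressed middle gene, in SMC line 2 and non-SMC line 1, and *Hoxa7* in non-SMC line 1. When the TSSs of every annotated transcript were used, *Hoxa9* was added in SMC line 2, and the numbers of members were 0, 2, 2 and 0. Within 0.5 kb of the TSS, 5, 11, 6 and 2 members had a peak, which is 13.2%, 28.9%, 15.8% and 5.26% of members against 50.7%, 56.6%, 52.7% and 51.0% of all genes. Between 0.5 and 3 kb the share of members with a peak grew to 28.9%, 63.2%, 39.5% and 39.5%, so most member peaks lay away from the TSS.

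**Figure D1:**
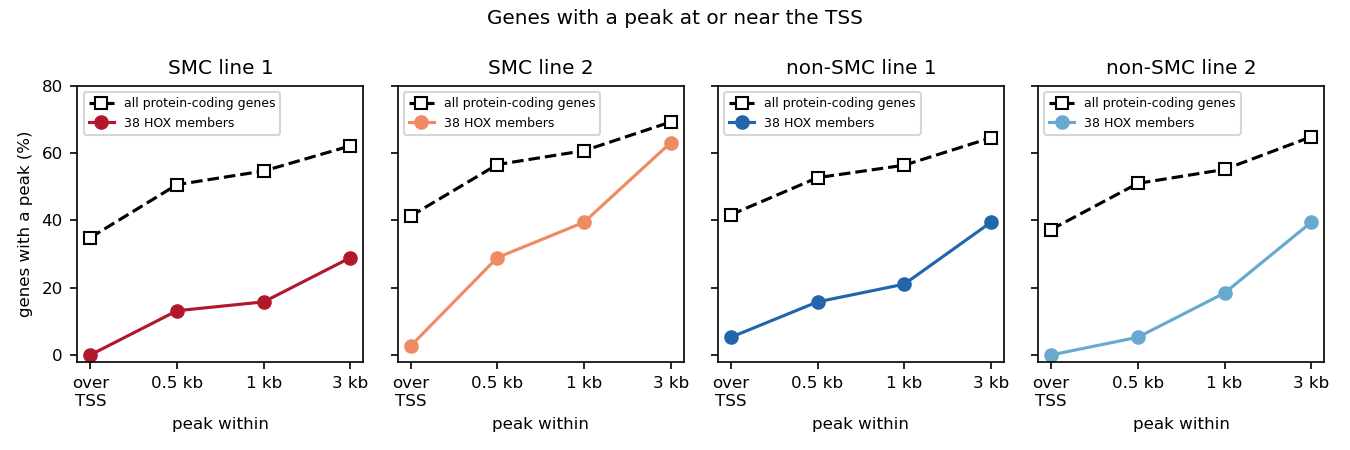
Share of genes (%, vertical axis) with a peak over the TSS or within 0.5, 1 or 3 kb of it (horizontal axis), for the 38 HOX members (filled circles) and all protein-coding genes (open squares) in each library. Members start between 0% and 5.26% at the TSS and stay under all genes at every distance in all 4 libraries.

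Strict promoter peaks were nearly absent. They were listed for 27.7%, 41%, 49.5% and 36.4% of all genes. Among the members they were listed for 0, 0, 1 and 0, and that 1 was *Hoxb9* in non-SMC line 1. Where a member had a promoter peak, the median percentile of its strongest peak was 19.7, 51.3, 30.3 and 30.5 in the same order, against 82.6, 86.2, 79.5 and 82.9 over all genes with a promoter peak. The summit pileups behind the strongest member peaks were 3 to 5 fragments in SMC line 1, 5 to 13 in SMC line 2, 6 to 20 in non-SMC line 1 and 3 to 5 in non-SMC line 2. The medians were 4, 7, 8 and 4 fragments against 9, 17, 27 and 11 over all genes with a promoter peak, so at these levels a closed site and a site missed for lack of depth cannot be told apart.

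Genes with CpG-rich promoters are usually open, and the members' median observed over expected CpG ratio was 0.74 against 0.52 over all genes, at a GC content of 55.2% and 55%. In the 250 bases before to 50 bases after the TSS, 18 of the 38 members and 9059 of the 21938 genes were CpG-rich, taken as at least 50% GC and an observed over expected CpG ratio of at least 0.6, a class added after the values had been seen. Over all CpG-rich genes a peak covered the TSS of 61.7%, 70.9%, 72.1% and 65.1%. Of the 18 CpG-rich members it covered 0, 1, 1 and 0, *Hoxb5* in both cases.

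Counts by cluster are given without a test. In the *Hoxb* cluster, 5, 8, 6 and 4 of 10 members had a promoter peak. In the *Hoxc* cluster, the numbers were 5, 6, 4 and 3 of 9. In the *Hoxa* cluster, they were 1, 6, 4 and 5 of 10. The *Hoxd* cluster had 0, 4, 1 and 3 of 9 members, the lowest count in each library, tied with *Hoxc* in non-SMC line 2. By position, 2, 3, 2 and 4 of 7 anterior members (groups 1 to 3), 5, 10, 8 and 7 of 15 middle members (groups 4 to 8) and 4, 11, 5 and 4 of 16 posterior members (groups 9 to 13) had a promoter peak. The share with a peak ran from 28.6% to 57.1% of anterior, 33.3% to 66.7% of middle and 25% to 68.8% of posterior members across the 4 libraries, so the positions overlapped. Positions were scored at the gene's 5′ end only. Annotated TSSs spread over 33795 bp for *Hoxd3*, 29481 bp for *Hoxa3*, 20443 bp for *Hoxb3*, 15461 bp for *Hoxc4*, 15145 bp for *Hoxd4* and 11316 bp for *Hoxc6*. The *Hoxa3* promoter peaks of both non-SMC lines lay in an untranslated region of *Hoxa7*.

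**Figure D2:**
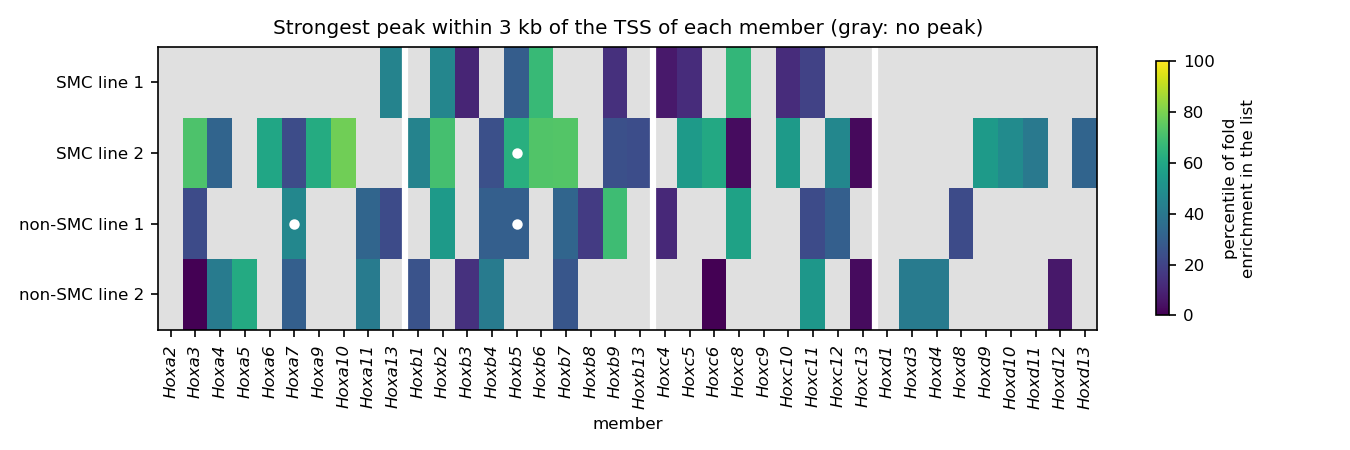
Percentile of fold enrichment (color) of the strongest peak within 3 kb of the TSS of each of the 38 members (columns) in each library (rows), with gray for no peak and a white dot where a peak covers the TSS. No column is filled in all 4 rows, and the 3 white dots are at *Hoxa7* and *Hoxb5*.

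Every member was accounted for by the number of libraries with a promoter peak. *Hoxa2*, *Hoxc9* and *Hoxd1* had none in any library, 3 of 38 members against 19.2% of all genes. A peak in 1 library was found at 14 members (36.8%, against 9.86% of all genes): *Hoxa5*, *Hoxa6*, *Hoxa9*, *Hoxa10*, *Hoxb8*, *Hoxb13*, *Hoxd3*, *Hoxd4*, *Hoxd8*, *Hoxd9*, *Hoxd10*, *Hoxd11*, *Hoxd12* and *Hoxd13*. A peak in 2 libraries was found at 12 members (31.6%, against 10.5%): *Hoxa4*, *Hoxa11*, *Hoxa13*, *Hoxb1*, *Hoxb3*, *Hoxb6*, *Hoxc4*, *Hoxc5*, *Hoxc6*, *Hoxc10*, *Hoxc12* and *Hoxc13*. A peak in 3 libraries was found at 9 members (23.7%, against 11.7%): *Hoxa3*, *Hoxa7*, *Hoxb2*, *Hoxb4*, *Hoxb5*, *Hoxb7*, *Hoxb9*, *Hoxc8* and *Hoxc11*. Members are not independent of each other here, since 10 pairs of neighboring TSSs lay within 6 kb, down to 2 bp for *Hoxd3* and *Hoxd4* and 647 bp for *Hoxc10* and *Hoxc5*.

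Peaks of different lines overlapped at a smaller share of members than of all genes. Of the 21 members with a promoter peak in at least 2 libraries, 9 (42.9%) had peaks of different libraries that shared a base, against 90.1% of the 15567 genes with a peak in at least 2 libraries. Those 9 members were *Hoxa13*, *Hoxb2*, *Hoxb4*, *Hoxb5*, *Hoxb6*, *Hoxb7*, *Hoxb9*, *Hoxc5* and *Hoxc10*. At the other 12 no base was shared. The 2 sets differ, since 10693 of the 15567 genes had a peak in all 4 libraries and no member did. Genes with a peak in more libraries have more pairs of libraries in which a base can be shared. This comparison was added after the values had been seen. *Hoxa7* is an example, with a peak at its TSS in non-SMC line 1 and another 224 bp away in non-SMC line 2. In all, 76 distinct peaks lay in member promoters, with a median width of 177 bp and fold enrichments from 2.18 to 5.26. Of these, 58 ranked under the median of their own list.

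Promoters that followed the cell type were few. Peaks in the 2 SMC lines alone (SMC-only) were found at 3 of 38 members (7.89%), *Hoxb6*, *Hoxc10* and *Hoxc5*, and at 3.08% of all genes. The opposite pattern was found at 1 member (2.63%), *Hoxa11*, and at 2.45% of all genes. The 2 sets differ, since 48.7% of all genes but no member had a peak in all 4 libraries, which excludes both patterns. Among promoters with a peak in 2 libraries, 3 of 12 members and 675 of 2309 genes were SMC-only. Of the same promoters, 1 member and 538 genes were non-SMC-only. *Hoxc10* and *Hoxc5* share the same peaks, so the SMC-only members stand for 2 sites. Without SMC line 1 the SMC-only count was 11 members, against 6.84% of all genes, and without non-SMC line 1 it was 7, against 6.51%. The non-SMC-only count was 2 without SMC line 1, 5 without SMC line 2, 5 without non-SMC line 1 and 3 without non-SMC line 2. In the same order, 4.06%, 6.79%, 5.13% and 4.19% of all genes were non-SMC-only. Among strict peaks both counts were 0, where 1.63% of all genes were SMC-only and 5.30% non-SMC-only.

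*Hoxb6*, a middle gene of the *Hoxb* cluster, had its SMC-only peaks inside an intron, where the antisense transcript *Hoxb5os* also runs. In SMC line 1 the peak spanned chr11:96294769-96294968, 2444 bp past the TSS at its summit, with a fold enrichment of 4.08, a percentile of 67.4 and a -log10 q of 2.12 from a pileup of 5. In SMC line 2 it spanned chr11:96294556-96294908, with a summit 2250 bp downstream, a fold enrichment of 3.76, a percentile of 72.8 and a -log10 q of 3.26 from a pileup of 13. The peaks shared 140 bases, and neither non-SMC line had a peak in this promoter. With the TSS of every transcript the *Hoxb6* promoter was no longer SMC-only.

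*Hoxc10*, a posterior gene that patterns the hindlimb and lower spinal cord, had its SMC-only peaks in its own coding sequence. They spanned chr15:102967088-102967222 in SMC line 1, with a fold enrichment of 2.68, a percentile of 12.7 and a -log10 q of 0.47 from 3 fragments. In SMC line 2 they spanned chr15:102967128-102967293, with a fold enrichment of 3.15, a percentile of 54.6 and a -log10 q of 1.28 from 7 fragments. The summits lay 329 and 449 bp downstream of the *Hoxc10* TSS. *Hoxc5*, a middle gene, was SMC-only through the same peaks because a long transcript of it starts here, while its other annotated TSS lies 46372 bp away.

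*Hoxa11*, a posterior gene of limb and uterus, had a peak in both non-SMC lines within 1 kb upstream of its TSS, over the antisense transcript *Hoxa11os*. The peak of non-SMC line 1 spanned chr6:52246280-52246459, with a fold enrichment of 3.09, a percentile of 32.7 and a -log10 q of 1.45 from 7 fragments. That of non-SMC line 2 spanned chr6:52246017-52246217, with a fold enrichment of 3.05, a percentile of 41.7 and a -log10 q of 0.92 from 4 fragments. These peaks were 62 bp apart and shared no base.

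*Hoxb9*, a posterior gene, had the 1 strict promoter peak among the members. In non-SMC line 1 it spanned chr11:96271130-96271283, with its summit 253 bp upstream of the TSS, a fold enrichment of 5.26, a percentile of 68.9 and a -log10 q of 8.31 from a pileup of 20. SMC line 2 had an overlapping peak at chr11:96271172-96271308, with a fold enrichment of 2.72, a percentile of 24.3 and a -log10 q of 1.14 from a pileup of 10. SMC line 1 had a separate peak 1320 bp downstream of the TSS, with a pileup of 4, and non-SMC line 2 had none. The peak was therefore seen in 1 line of each type.

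*Hoxb5* was the only member whose TSS was covered by a peak in 2 libraries. In SMC line 2 the summit lay 11 bp upstream of the TSS, with a percentile of 63.2 and a pileup of 12. In non-SMC line 1 it lay 297 bp upstream, with a percentile of 11.0 and a pileup of 9, and in SMC line 1 it lay 272 bp upstream, with a percentile of 29.4 and a pileup of 4. The peaks of these 3 libraries formed 1 region, chr11:96302875-96303427, and non-SMC line 2 had no peak there. *Hoxa5*, the other member with a well known part in lung development, had a peak in non-SMC line 2 only, 930 bp downstream of its TSS, with a percentile of 61.1 and a pileup of 5.

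The mean number of members with a promoter peak did not separate the types. SMC averaged 17.5 ± 9.19 members (SD, n = 2), while non-SMC averaged 15 ± 0 (SD, n = 2). These means differed by 2.5 members, less than the 6.5 of the SD between lines of a type. Within line pair 1 SMC had 4 members fewer (11 against 15), and within line pair 2 it had 9 more (24 against 15), so the pairs pointed in opposite directions.

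The windows held 259 peaks over all 4 libraries, of which 5 were strict. Their density was 40.7, 112, 78.0 and 62.1 peaks per Mb. The averages over the genome were 33.4, 56.5, 42.5 and 47.2 per Mb, so peaks were denser in the windows than in the genome in every library. These peaks were weak, since 69.4%, 60.6%, 85.5% and 74.5% of them ranked under the median of their list. Strict peaks made up 0%, 2.02%, 4.35% and 0% of them, against 14.3%, 17.1%, 38% and 19.5% of the whole lists.

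**Figure D3:**
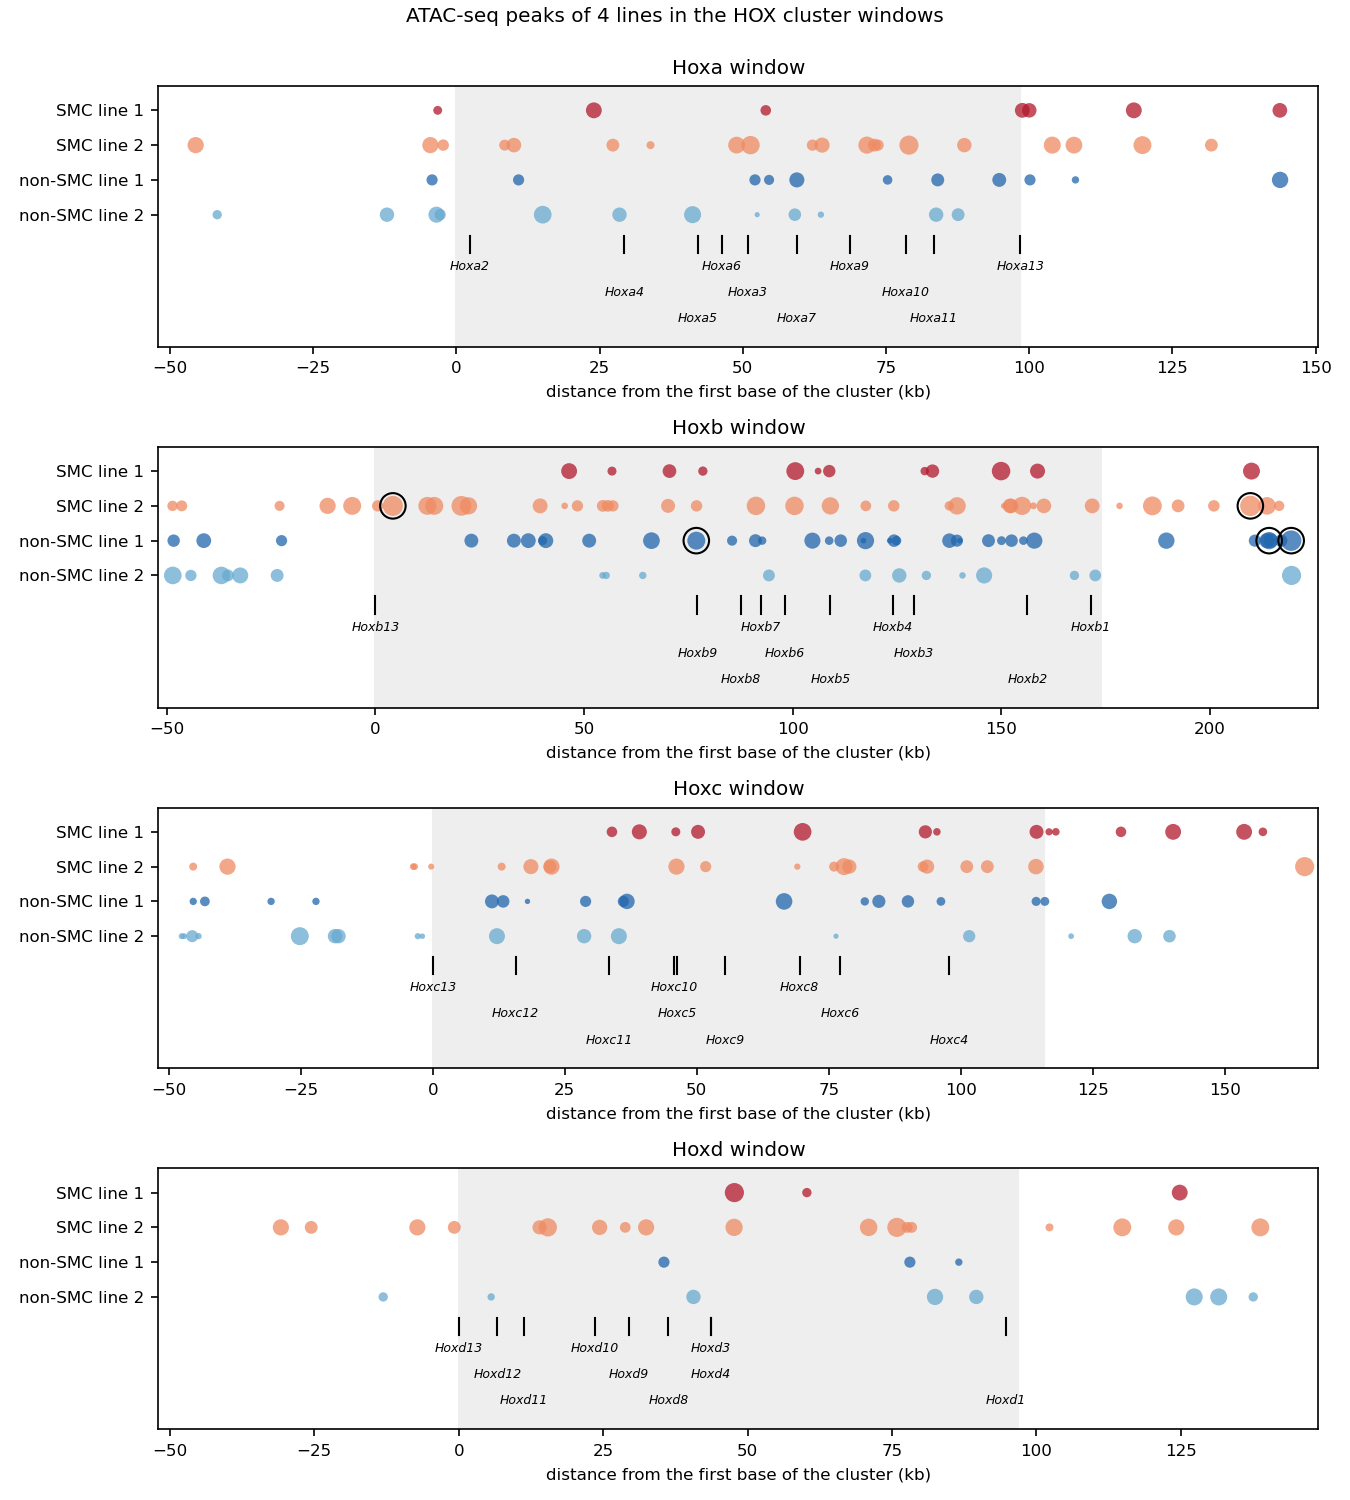
Position of every peak summit (points, size by percentile) in the 4 windows, in kb from the first base of each cluster, for the 4 libraries; gray marks the span of the listed genes, ticks their TSSs, and black rings the 5 strict peaks. All 5 rings lie in the *Hoxb* window, 2 of them from SMC line 2 and 3 from non-SMC line 1.

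Scaled to the length of the lists, the *Hoxb* window held 1.32 and 2.60 peaks per 10000 listed in SMC lines 1 and 2, and 3.19 and 1.4 in non-SMC lines 1 and 2. An even spread over the full chromosome lengths would give 1.01, and a shorter genome size would raise this value in every window. SMC averaged 1.96 ± 0.91 (SD, n = 2), while non-SMC averaged 2.3 ± 1.27 (SD, n = 2). SMC minus non-SMC was -0.34, within the SD between lines of 1.1. The high values belonged to the libraries of greater depth, SMC line 2 and non-SMC line 1, of different types.

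With full lists and 50 kb flanks the *Hoxc* window was the most even, with 1.54 and 1.36 peaks per 10000 in SMC and 1.55 and 1.32 in non-SMC, against an even spread of 0.79. SMC minus non-SMC was 0.01 with an SD between lines of 0.15, but with equal numbers of top peaks it was 0.33, with no flank 0.21 and with a flank of 10 kb 0.26, all above that SD. The *Hoxa* window held 0.77 and 1.30 in SMC and 0.95 and 0.93 in non-SMC with full lists and 50 kb flanks. The even spread was 0.73 there, with a difference of 0.09 and an SD of 0.27. The *Hoxd* window held 0.33 and 1.17 in SMC and 0.26 and 0.62 in non-SMC, against 0.72, with a difference of 0.31 and an SD of 0.46. It was the window with the fewest peaks, and 3 of the 4 libraries were under an even spread there. With full lists and 50 kb flanks, SMC and non-SMC differed by less than the SD between lines in all 4 windows.

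**Figure D4:**
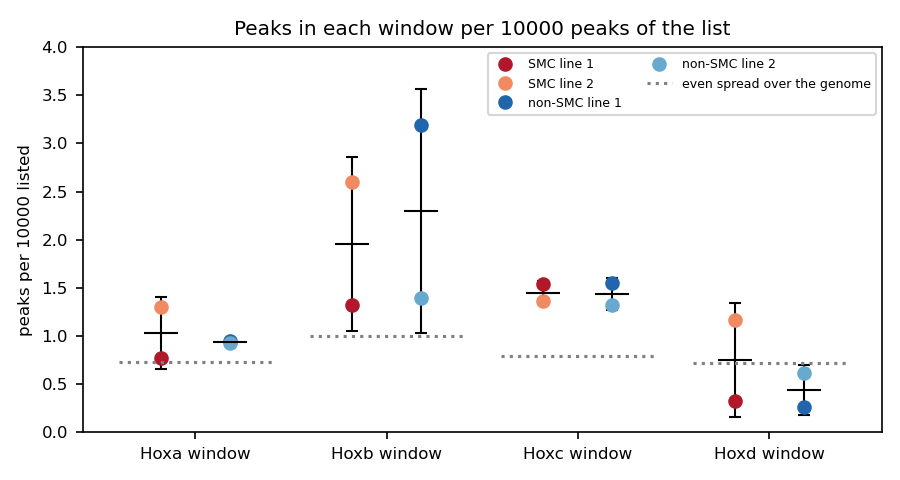
Peaks per 10000 peaks of the list (vertical axis) in each window, with 1 point per line, the mean and SD of each type (n = 2, black) and the value that an even spread over the full chromosome lengths would give (dotted). SMC and non-SMC ranges overlap in the *Hoxa*, *Hoxb*, *Hoxc* and *Hoxd* windows.

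Between the first and last gene of a cluster, SMC line 2 had 161 peaks per Mb in *Hoxb*, 132 in *Hoxa*, 130 in *Hoxc* and 103 in *Hoxd*, more than in the flanks, where it had 120, 70, 60 and 80. Non-SMC line 1 was also denser inside all 4 clusters, with 155 per Mb against 100 in *Hoxb*. The other libraries were not uniform, since SMC line 1 had 20.3 inside and 50 outside *Hoxa*, and non-SMC line 2 had 43.2 inside and 120 outside *Hoxc*. The median local background over the *Hoxb* peaks was 1.33, 1.27, 1.44 and 1.19 times the lowest background of the library. The medians over whole lists were 1.35, 1.09, 1.17 and 1.09, so it was higher in *Hoxb* in every library but SMC line 1. In the *Hoxa*, *Hoxc* and *Hoxd* windows the medians lay between 1 and 1.16. The part of this background in the number of *Hoxb* peaks was not tested.

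**Figure D5:**
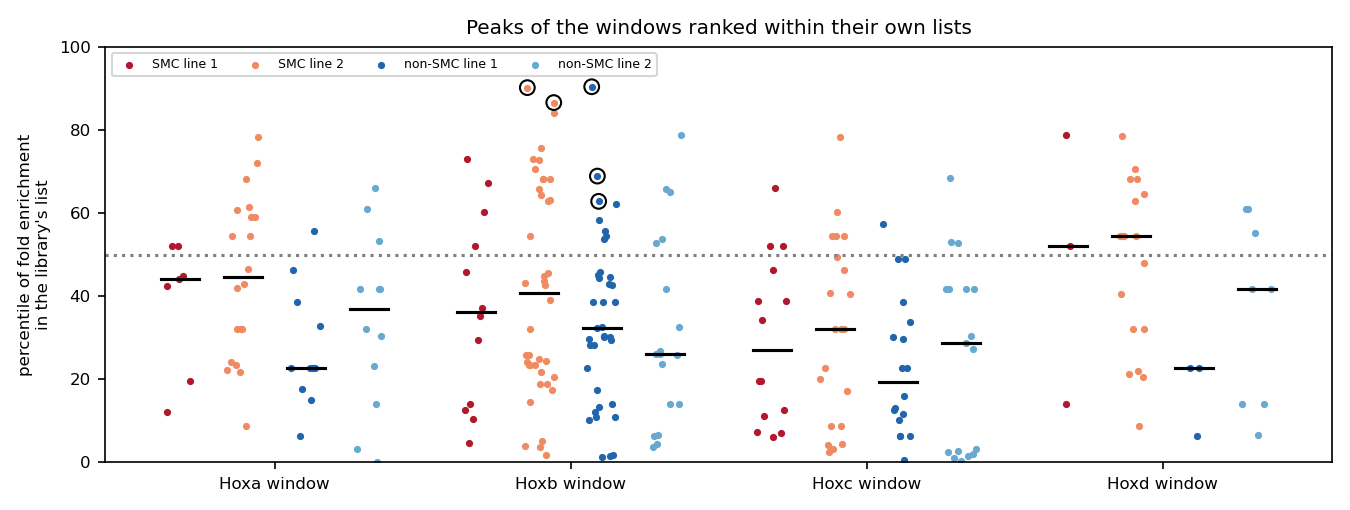
Percentile of fold enrichment in its own list (vertical axis) of every peak in each window, by library, with the median of each set (bar), the list median of 50 (dotted) and rings for strict peaks. Most medians lie under 50, and peaks above the 90th percentile occur only in the *Hoxb* window of SMC line 2 and non-SMC line 1, with 1 peak each.

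When the lists were merged, 231 regions lay in the windows, of 357570 in the genome. A peak in 1 library only was found at 207 of them (89.6%), against 76.9% of all regions. SMC-only peaks made up 4 regions (1.73%, against 4.37%), and the opposite pattern was found at 1 (0.43%, against 7.33%). No region had a peak in all 4 libraries, a pattern of 3.81% of all regions. *Hoxb* held 88 regions, *Hoxc* 66, *Hoxa* 46 and *Hoxd* 31. Regions with a peak in at least 2 libraries numbered 24, of which 16 were in *Hoxb*, 4 in *Hoxa*, 3 in *Hoxc* and 1 in *Hoxd*.

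The 5 regions that followed the cell type are shown by the 201 bases around the summit of their strongest peak (mm10, plus strand), because they are the sites on which the cell type patterns rest. Capitals mark matches to 7 motifs searched up to 100 bp from the summit, on either strand, which were a strict CTCF consensus, AP-1 (TGANTCA), TEAD (GGAATG), HOX-PBX (TGATTNAT), MEIS (TGACAG), CDX (TTTATNG) and DR5, a pair of AGGTCA half-sites with 5 bases between them. HOX-PBX and CDX matches can share bases. The lines below give the *Hoxb6* intron (chr11:96294626-96294826), the *Hoxc10* coding sequence (chr15:102967145-102967345), the *Hoxd3os1* site (chr2:74715934-74716134), and the SMC-only and the non-SMC-only site between *Hoxb1* and *Skap1* (chr11:96403861-96404061 and chr11:96413644-96413844).
Hoxb6 intron, SMC-only: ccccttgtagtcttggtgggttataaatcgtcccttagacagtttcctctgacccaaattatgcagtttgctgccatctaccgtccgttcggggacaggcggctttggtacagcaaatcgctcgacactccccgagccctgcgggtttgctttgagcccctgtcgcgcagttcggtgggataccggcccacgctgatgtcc
Hoxc10 coding sequence, SMC-only: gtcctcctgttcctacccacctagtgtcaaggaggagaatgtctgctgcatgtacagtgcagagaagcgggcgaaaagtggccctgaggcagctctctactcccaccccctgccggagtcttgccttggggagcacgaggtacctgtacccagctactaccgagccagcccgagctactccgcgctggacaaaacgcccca
Hoxd3os1, SMC-only: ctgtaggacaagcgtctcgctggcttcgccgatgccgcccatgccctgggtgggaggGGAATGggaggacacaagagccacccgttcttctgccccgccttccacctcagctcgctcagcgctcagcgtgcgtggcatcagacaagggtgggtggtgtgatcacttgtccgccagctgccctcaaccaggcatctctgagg
Hoxb1 to Skap1, SMC-only: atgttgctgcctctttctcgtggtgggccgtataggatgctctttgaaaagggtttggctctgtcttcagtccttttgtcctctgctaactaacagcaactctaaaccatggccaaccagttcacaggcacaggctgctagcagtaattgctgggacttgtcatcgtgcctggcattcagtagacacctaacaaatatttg
Hoxb1 to Skap1, non-SMC-only: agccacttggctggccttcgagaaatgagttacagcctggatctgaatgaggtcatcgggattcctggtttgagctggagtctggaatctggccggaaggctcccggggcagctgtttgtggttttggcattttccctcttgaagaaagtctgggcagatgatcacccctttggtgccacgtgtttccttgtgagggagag

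The *Hoxd3os1* sequence held a TEAD match, and the other 4 held none of the 7 motifs. Over the 231 regions of the windows, AP-1 was found in 6 (2.60%) against 14.6% of all regions, MEIS in 19 (8.23%) against 16.7%, TEAD in 27 (11.7%) against 12.6%, HOX-PBX in 6 (2.60%) against 3.51% and CDX in 18 (7.79%) against 8.12%. From the first to the last gene of a cluster, in 147 regions, HOX-PBX was found in 6 (4.08%), CDX in 15 (10.2%) and MEIS in 13 (8.84%). The HOX-PBX and CDX shares there were near those over all regions, and no test was made. The CTCF consensus was found in 1 region (0.43%, against 0.83%) and DR5 in none (0.01% of all regions). Among regions of 1 library, AP-1 was in 6 of 207 (2.90%) in the windows and in 11.1% genome-wide, and MEIS in 17 (8.21%) and 16.7%. A match is only an occurrence of these letters, and a strict CTCF consensus can miss sites of that factor.

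In the *Hoxd* window, the region over the antisense transcript *Hoxd3os1* was the only 1 with a peak in at least 2 libraries. In SMC line 1 its peak, chr2:74715868-74716129, had a fold enrichment of 4.81, a percentile of 78.7 and a -log10 q of 3.18 from a pileup of 6 and was the strongest of the *Hoxd* window in that library. In SMC line 2 it had a fold enrichment of 3.37, a percentile of 62.9 and a -log10 q of 1.72 from a pileup of 8. The peaks shared 200 bases, and both non-SMC lines had no peak there. It lies in introns of long *Hoxd3* and *Hoxd4* transcripts, 4105 bp from the *Hoxd4* TSS and so outside both promoters as defined here. The strongest *Hoxd* peak of SMC line 2 was at chr2:74744002-74744341, in coding sequence of *Hoxd3*, with a fold enrichment of 4.18, a percentile of 78.6 and a -log10 q of 3.22 from a pileup of 10. Non-SMC line 1 had only 3 peaks in the window, with 2 tied as the strongest at a fold enrichment of 2.82, a percentile of 22.8 and a -log10 q of 0.95 from 6 fragments. The first, chr2:74703808-74703958, lay 777 bp from the *Hoxd8* TSS. Non-SMC line 2 had 8, with 2 tied at a fold enrichment of 3.66, a percentile of 61.1 and a -log10 q of 1.74 from 5 fragments. The first, chr2:74795563-74795756, lay 32.7 kb from *Hoxd1*.

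The strongest sites of the *Hoxb* window lay outside the genes, between *Hoxb1*, an anterior gene of the hindbrain, and the neighboring *Skap1*. The non-SMC-only site at chr11:96413592-96414332, 48.0 kb from *Hoxb1*, had a fold enrichment of 10.1, a percentile of 90.4 and a -log10 q of 35.3 from a pileup of 53 in non-SMC line 1. In non-SMC line 2 it had a fold enrichment of 5.17, a percentile of 78.7 and a -log10 q of 4.40 from a pileup of 9. It was the strongest peak of the window in both non-SMC lines, and the SMC lists held no peak at this site. The SMC-only site at chr11:96403716-96404403, 38.2 kb from *Hoxb1*, was the strongest of the window in SMC line 2, with a fold enrichment of 6.25, a percentile of 90.2 and a -log10 q of 10.8 from a pileup of 23. In SMC line 1 it had a fold enrichment of 3.64, a percentile of 60.2 and a -log10 q of 1.48 from a pileup of 5. The SMC peaks shared only 11 bases.

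Other strict peaks of the window were at chr11:96198415-96198552, 4.19 kb from *Hoxb13*, with a -log10 q of 6.00 in SMC line 2, and at chr11:96408339-96408558, in non-SMC line 1, with a -log10 q of 7.36. The strongest *Hoxb* peak of SMC line 1 spanned chr11:96344107-96344659 in *Hoxb3*, with a fold enrichment of 4.25, a percentile of 73.0 and a -log10 q of 2.33 from a pileup of 6. Besides the *Hoxb5* promoter, 2 *Hoxb* regions had a peak in 3 libraries. At chr11:96311681-96312126, 6518 bp from the *Hoxb4* TSS, SMC line 2 had a percentile of 20.5, non-SMC line 1 of 62.2 and non-SMC line 2 of 26.1. At chr11:96145665-96146059, in an intron of *Ttll6*, they were 18.9, 29.6 and 65.8 in the same libraries.

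In the *Hoxc* window the strongest peaks differed from line to line. In SMC line 1 it was in the coding sequence of *Hoxc8*, a middle gene of the trunk, at chr15:102991086-102991274, with a fold enrichment of 3.99, a percentile of 66.0 and a -log10 q of 2.00 from a pileup of 5. In SMC line 2 it was 67.3 kb from *Hoxc4*, at chr15:103086158-103086346, with a fold enrichment of 4.16, a percentile of 78.4 and a -log10 q of 3.65 from a pileup of 12. In non-SMC line 1 it was 2972 bp upstream of *Hoxc8*, at chr15:102987529-102987750, with a fold enrichment of 4.09, a percentile of 57.4 and a -log10 q of 3.65 from a pileup of 11. In non-SMC line 2 it was 25.2 kb from *Hoxc13*, at chr15:102895799-102896041, with a fold enrichment of 4.16, a percentile of 68.4 and a -log10 q of 2.52 from a pileup of 6. A region in an intron of *Hoxc4*, chr15:103035309-103035573, had a peak in 3 libraries, with percentiles of 38.9, 49.5 and 13.1 in SMC lines 1 and 2 and non-SMC line 1.

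In the *Hoxa* window the strongest peaks also lay at different sites. In SMC line 2 it was 566 bp upstream of *Hoxa10*, a posterior gene, at chr6:52241371-52241614, with a fold enrichment of 4.15, a percentile of 78.4 and a -log10 q of 3.42 from a pileup of 11. In SMC line 1, 2 peaks were tied at a fold enrichment of 3.43, a percentile of 52.0 and a -log10 q of 1.23 from a pileup of 4, the first at chr6:52186283-52186460 in an intron of *Hoxa3*. In non-SMC line 1 it was 45.3 kb beyond *Hoxa13*, at chr6:52305930-52306266, with a fold enrichment of 4.02, a percentile of 55.8 and a -log10 q of 3.09 from a pileup of 9, and SMC line 1 had an overlapping peak with a percentile of 44.0. In non-SMC line 2 it was at chr6:52177035-52177570, 12.7 kb from *Hoxa2*, with a fold enrichment of 3.91, a percentile of 66.0 and a -log10 q of 2.15 from a pileup of 6.

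Non-coding genes of the clusters had similarly scattered peaks. Of 16 named antisense, long non-coding and microRNA genes whose 5′ end lies in a window, 8, 9, 9 and 5 had a peak within 3 kb of it, and 1, *Hotairm1*, had a peak in all 4, with percentiles of 12.2, 54.6, 22.8 and 53.3. *Hoxaas2*, *Mir196b* and *Haglr* had none. *Hotair*, transcribed from the *Hoxc* cluster, had a peak in the non-SMC lines only, with percentiles of 22.8 and 41.7, and these peaks shared no base. *Hoxd3os1*, *Mir196a-1* and *Mir196a-2* had a peak in both SMC lines only, with percentiles of 78.7 and 62.9, 37.2 and 39.0, and 38.9 and 22.7. The peaks shared bases at *Hoxd3os1* but not at the microRNA genes, and no share over all non-coding genes was computed. *Hottip*, at the 5′ end of *Hoxa*, had a peak in line 1 of each type.

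Genes next to the clusters had promoter peaks in a larger share than the members did. Of 12 neighboring genes matched to the annotation, 7, 11, 10 and 9 had a promoter peak. In every library it was listed for 7 of them, a pattern of 48.7% of all genes and of no member. Strict peaks were listed for 4, 5, 8 and 6 of them, and for 27.7%, 41%, 49.5% and 36.4% of all genes. *Lnpk*, beyond *Hoxd*, ranked at percentiles of 95.8, 94.6, 99.5 and 99.0, *Cbx5*, beyond *Hoxc*, at 93.5, 91.0, 94.2 and 95.3, and *Hibadh*, beyond *Hoxa*, at 97.2, 97.9, 97.5 and 95.6. Other neighbors ranked lower, such as *Skap1* at 66.9, 63.6, 22.8 and 30.8 and *Ttll6* at 52.0, 71.9, 69.4 and 22.7. *Smug1* had a peak in SMC line 2 and non-SMC line 1 only. The homeobox genes *Evx1* and *Evx2*, which sit at the 5′ ends of *Hoxa* and *Hoxd*, had a peak in SMC line 2 only. *Snx10* had a non-SMC-only promoter. *Prac1*, of the same list, was not found in the annotation under this name.

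Genes that act with or on HOX genes mostly had promoter peaks, of widely differing strength. A peak in all 4 libraries, found at 48.7% of all genes, is the measure below. Of 9 cofactors of the PBX, MEIS and PKNOX families, which bind DNA together with HOX proteins, 8 had a promoter peak in every library, and *Meis1* lacked it in SMC line 1 only. *Pbx3* ranked at percentiles of 89.8, 93.6, 85.1 and 95.5, and *Pbx2* at 39.8, 14.4, 2.82 and 50.5. Of 14 Polycomb genes, 12 had a peak in all 4 libraries, and *Ezh2*, the methyltransferase, ranked between 93.1 and 98.6, while *Ring1*, a ubiquitin ligase subunit, ranked at 62.2, 17.2, 9.30 and 25.03. Of 10 activators of HOX chromatin, 8 had a peak in all 4, and *Kmt2a*, which encodes MLL1, ranked at 74.1, 88.6, 58.7 and 85.2, while *Kmt2d* ranked at 4.65, 24.9, 46.4 and 64.4. These examples were chosen after their values were seen. All 4 boundary genes (*Ctcf*, *Rad21*, *Smc1a* and *Smc3*) had a peak in all 4 libraries.

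The upstream factors were more variable. *Cdx1*, *Cdx2* and *Cdx4*, caudal-type activators of posterior Hox genes, had a promoter peak in 1, 2 and 2 libraries, and *Cdx4* was SMC-only with percentiles of 44.8 and 54.6. Among the retinoic acid receptors, *Rarg* had a peak in all 4 libraries, *Rarb* in 3, with percentiles of 90.1 and 91.8 in SMC lines 1 and 2 and 72.3 in non-SMC line 1, and *Rara* was non-SMC-only, with percentiles of 59.8 and 3.83. Of the ParaHox genes, the evolutionary sisters of the clusters, *Gsx1* had a peak in all 4 libraries, and *Pdx1* and *Gsx2* in 3 each.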

How the data were processed

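ATAC-seq libraries of 2 SMC and 2 non-SMC lines were analyzed, 1 per line. Per the study's methods, the authors mapped paired-end reads to mm10 with Bowtie2 2.3.4, removed duplicates and called peaks with MACS2 2.1.1 per library, with settings not given in the sources used here. Fold enrichment, as deposited, is the summit pileup over local background, a ratio. The authors also gave -log10 of p and q and a score, which was not used. These values depend on depth and were compared within a list only.

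Peaks outside the 19 autosomes, X and Y (61 to 85 per list) were left out. Positions were read on GRCm38 with GENCODE M21, and the TSS was taken as the gene's 5′ end. Peaks sharing 1 base or more were counted as overlapping. Pileup and background were recovered from fold enrichment and p, with 1 added to both as MACS2 does, and depth from the lowest background, the preset genome size and the shortest peak. Recovery and overlap were checked on simulated data. Counting noise limits weak peaks, and no test was made with 2 lines per type.

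Named genes were all 38 members, with full values for SMC-only and non-SMC-only members and for the peak with the highest percentile in each cluster and library, and fixed lists of cofactors, upstream, Polycomb, activator, boundary, neighboring, ParaHox and marker genes. Members, lists, motifs and tests were chosen with earlier results of these data known. Alternatives were strict peaks, equal numbers of top peaks, rescaling to the lowest depth, each library left out, autosomes only, other promoter definitions, other flanks and covered bases. Reads and RNA-seq were not analyzed here, and some items are not reported here. Tools were bedtools 2.31.1 and samtools 1.23.1, and in Python 3.11.15 pysam 0.24.0, pandas 2.3.3, numpy 2.4.6, matplotlib 3.10.9 and scipy 1.17.1.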

Additional observations from a re-analysis of the deposited data

Results flagged for a closer look

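The SMC minus non-SMC difference pointed in opposite directions in the 2 line pairs for 4 results, and the difference between pairs was not tested. The pairs share a number in the labels and are not stated to come from the same tumor. For members with a promoter peak it was -4 in pair 1 and 9 in pair 2, a change of 13 members. For peaks per 10000 listed, pair 2 exceeded pair 1 by 3.08 in the *Hoxb* window (-1.88 and 1.2), by 0.55 in the *Hoxa* window (-0.18 and 0.37) and by 0.0597 in the *Hoxc* window (-0.02 and 0.04). In pair 1 the SMC library was shallower than the non-SMC library (8.36 M against 23.5 M reads), and in pair 2 it was deeper (29.4 M against 10.4 M). Pair and depth cannot be told apart here, and the part of depth was not tested. In the *Hoxd* window the differences were 0.07 and 0.55, both positive.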

How the results depend on the processing

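The SMC-only count of 3 members became 0 with strict peaks or after rescaling to the lowest depth with p up to 1e-05, and 1 (*Hoxc10*) with the TSS of every transcript. The shares over all genes there were 1.63%, 1.71% and 2.52%. The non-SMC-only count of 1 became 0 with strict peaks and after rescaling, 3 with equal numbers of top peaks, and 2 with a promoter of 2 kb or 1 kb. Over all genes these shares were 5.30%, 5.61%, 2.74%, 2.19% and 2.18%, in this order. In narrower promoters the SMC-only count stayed at 3 with *Hoxc8* in place of *Hoxb6*. The *Hoxc* difference of 0.01 moved to 0.33 with equal numbers of top peaks, 0.21 with no flank and 0.26 with a flank of 10 kb. Leaving out each library in turn gave 3 to 11 SMC-only members (11 without SMC line 1, 7 without non-SMC line 1), 2 to 5 non-SMC-only members and a difference in members with a peak of -4 (without SMC line 2) to 9 (without SMC line 1). Over all genes the shares then ran from 4.76% to 6.84% SMC-only and from 4.06% to 6.79% non-SMC-only. When each library was left out, the *Hoxa* and *Hoxb* differences ran from -0.17 to 0.36 and from -1.24 to 0.56. Those of *Hoxc* and *Hoxd* ran from -0.10 to 0.13 and from -0.11 to 0.73, so the sign changed in every window. With 2 lines per type such a shift cannot exceed the SD between lines, and strict peaks left 0 peaks in the *Hoxa*, *Hoxc* and *Hoxd* windows, so neither alternative shows stability. The causes were not tested. No paired test was made, since there are only 2 line pairs and they are not stated to share a tumor. Differences within line pairs are given as values only. Most member peaks rest on 3 to 13 fragments, and each type has 2 lines with 1 library each.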
